A study of Mus musculus with 4 samples.

Results

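The mitochondrial ribosomal protein genes were taken as every protein-coding gene of the deposited table whose symbol starts with Mrpl or Mrps followed by a digit. This gave 77 of the 14936 genes listed, 48 with an Mrpl symbol (large subunit) and 29 with an Mrps symbol (small subunit). The RNA came from the hearts of 4 E18.5 mouse embryos on a C57BL/6 background. All 4 were homozygous for a floxed allele of Adar1, the gene of an RNA-editing deaminase that acts on adenosine. Embryos 47 and 50 carried no Nkx2.5-Cre and are the controls. Embryos 51 and 54 carried 1 Nkx2.5-Cre allele, which places the recombinase under a gene of the early heart, and are the mutants. The Nkx2.5-Cre allele was present in the mutants and in neither control. An effect of that allele itself and an effect of recombination at the floxed allele therefore cannot be told apart.

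Mitochondria keep their own ribosome, which translates the few messenger RNAs of the mitochondrial genome, all of them for subunits of the respiratory chain and ATP synthase. Its ribosomal RNAs come from the mitochondrial genome, but all of its proteins are encoded in the nucleus, made in the cytosol and imported. Some of these proteins descend from bacterial ribosomal proteins and others are particular to mitochondria. The heart depends heavily on respiration, and inherited defects of several of these proteins in humans cause cardiomyopathy.

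The libraries held between 7457103 and 8998872 reads of listed genes, and between 56 and 1610 reads per member. Adar itself stood at 30.2 and 35.7 CPM (reads relative to library size, as scaled by the authors) in controls 47 and 50. Its total was higher for embryos 51 and 54, at 195 and 213 CPM, and the cause of this rise was not tested. Whether the floxed part was lost cannot be read from gene totals. Nkx2-5, the gene named in the Cre allele, stood at 150 and 143 CPM in controls 47 and 50. In libraries 51 and 54 it was lower, at 69.2 and 92.8 CPM, and the reason was not tested. The groups rest on the sample titles, and the genotype field of embryos 51 and 54 names both wildtype and KO. Mutant and control therefore mean libraries labelled so throughout. The heart label was met by high levels of cardiomyocyte markers in all 4 libraries, as given below.

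As a group the mitochondrial ribosomal protein genes were lower in the mutants. Of the 77 members, 26 fell, 4 rose (Mrps18b, Mrpl32, Mrps10 and Mrps2) and 47 did not pass the test (limma-trend, Benjamini-Hochberg adjusted p under 0.05 over all 14869 genes tested). That is 33.8% lower and 5.19% higher, against a background of 14.2% lower and 17.8% higher among all genes tested. The median log2 fold change (mutant minus control, from log2 of CPM plus 1) was -0.29 over the members and -0.01 over all genes. Both mutants lay below both controls for 53 members, above them for 11, and overlapped them for 13, where the background over all genes was 36.3% below and 36.0% above. On the recovered reads, edgeR's quasi-likelihood test called 26 members lower and 4 higher (13.3% and 18.2% of all genes), and DESeq2 20 and 1 (10.5% and 14.2%). The authors' deposited table gave an FDR under 0.05 to 30 members, the same 30, against 30.9% of all genes, and either direction made up 31.9% of all genes here. With either control left out, most members that fell or rose lost their calls, while with either mutant left out most kept them. Such a fit leaves 1 library in a group, and its shares over all genes are not given here. The loss of calls is therefore not read as a result about the members.

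The summed level of the members was 4138 and 4161 CPM in controls 47 and 50, and 3135 and 3388 CPM in mutants 51 and 54. The controls were close to each other and both mutants lay lower, by 21.4% on average. The sum over all genes listed changed by -6.20%, and its part in this difference was not tested. Of the reads of listed genes, the members made up 0.400% and 0.404% in controls 47 and 50. In mutants 51 and 54 they made up 0.335% and 0.338%. A two-sided exact permutation test of this sum gave p = 0.333, the smallest that 2 against 2 libraries allow, so the threshold was out of its reach. Mutant 51 was the lower mutant for 52 of the 77 members, against 7801 of all 14936 genes.

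**Figure D1:**
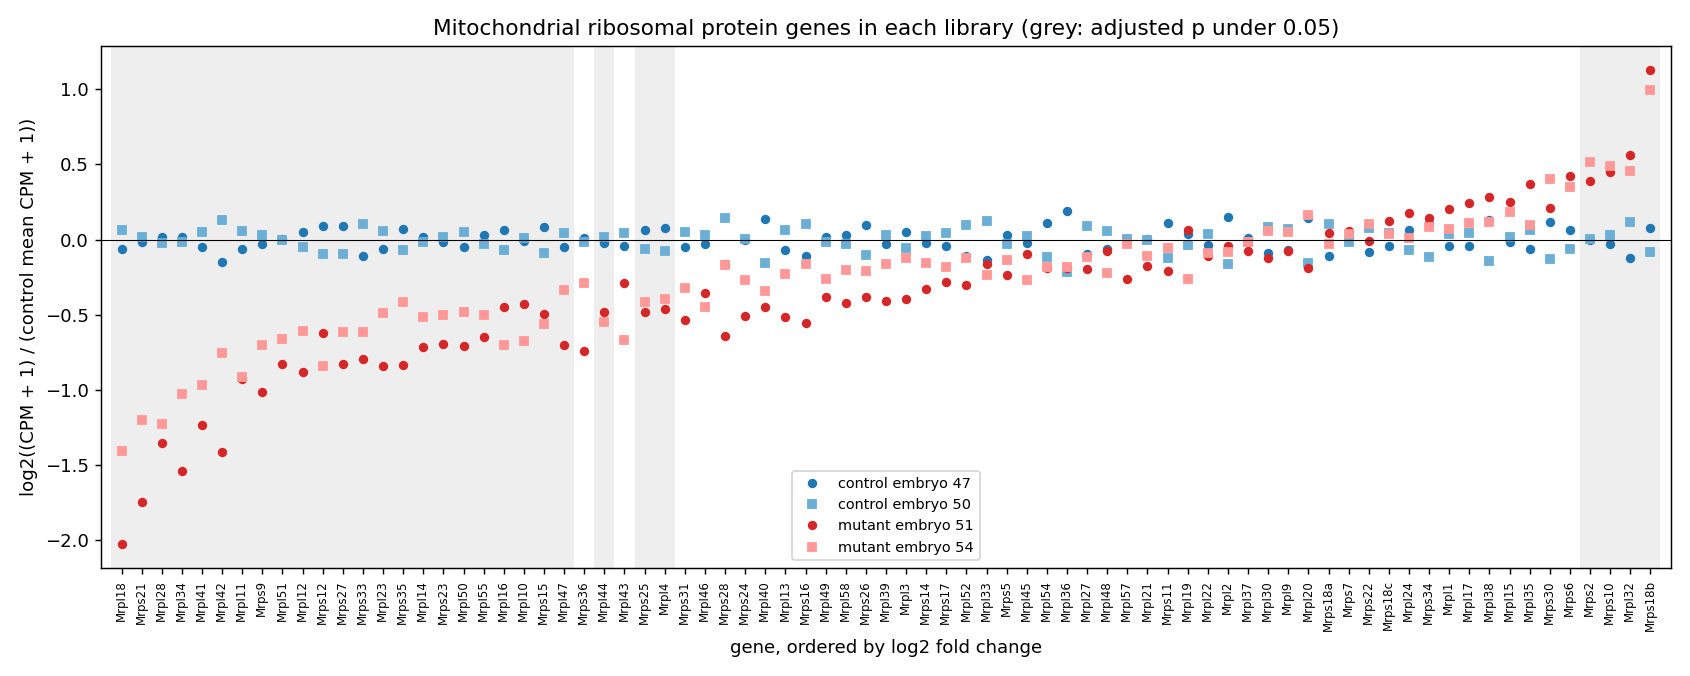
Each member's level in each library, as log2 of (CPM + 1) over the control mean (vertical axis), with the 77 genes ordered by log2 fold change (horizontal axis); grey marks adjusted p under 0.05. The 26 genes that fell lie at the left, the 4 that rose at the right, and mutant 51 (dark red) lies below mutant 54 (light red) for most of the left side.

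The promoters of 5 members are shown because these genes span the response: Mrpl18 and Mrps21 had the most negative log2 fold changes of each subunit, Mrpl12 was among the highest per length, and Mrps18b and Mrpl32 rose. The windows are the 250 bases before the start in RefSeq (GRCm38.p6), on the gene's own strand: chr17:12916092-12916341 (minus) for Mrpl18, chr3:95871515-95871764 (minus) for Mrps21, chr11:120484387-120484636 (plus) for Mrpl12, chr17:35916441-35916690 (minus) for Mrps18b and chr13:14613038-14613287 (minus) for Mrpl32. Capitals mark matches, on either strand, to the letters searched: GCGC, any base, then TGCGC for NRF1, CCGGAAG for ETS factors, AAGATGGC for YY1, TGATGNAA for C/EBP-ATF and GAAA, any 2 bases, then GAAA for the interferon-stimulated response element.
Mrpl18: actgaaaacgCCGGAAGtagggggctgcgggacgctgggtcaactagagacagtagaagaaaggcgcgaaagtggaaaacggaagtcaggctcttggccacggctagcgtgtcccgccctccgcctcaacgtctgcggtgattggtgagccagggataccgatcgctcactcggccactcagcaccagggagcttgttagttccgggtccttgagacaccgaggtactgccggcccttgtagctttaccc
Mrps21: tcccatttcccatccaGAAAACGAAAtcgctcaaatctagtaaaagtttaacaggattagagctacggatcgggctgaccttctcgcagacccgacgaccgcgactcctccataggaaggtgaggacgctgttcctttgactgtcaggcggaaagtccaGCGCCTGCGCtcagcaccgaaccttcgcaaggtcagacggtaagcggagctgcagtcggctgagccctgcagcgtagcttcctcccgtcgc
Mrpl12: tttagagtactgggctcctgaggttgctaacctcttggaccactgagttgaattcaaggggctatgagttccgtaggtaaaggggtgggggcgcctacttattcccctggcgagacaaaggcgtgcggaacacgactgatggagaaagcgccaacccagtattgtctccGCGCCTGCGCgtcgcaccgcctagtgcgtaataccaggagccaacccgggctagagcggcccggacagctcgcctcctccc
Mrps18b: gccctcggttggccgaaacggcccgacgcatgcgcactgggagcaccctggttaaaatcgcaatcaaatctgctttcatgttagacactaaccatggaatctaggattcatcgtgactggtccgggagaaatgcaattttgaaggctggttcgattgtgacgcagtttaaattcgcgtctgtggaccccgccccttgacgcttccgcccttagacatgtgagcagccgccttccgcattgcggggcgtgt
Mrpl32: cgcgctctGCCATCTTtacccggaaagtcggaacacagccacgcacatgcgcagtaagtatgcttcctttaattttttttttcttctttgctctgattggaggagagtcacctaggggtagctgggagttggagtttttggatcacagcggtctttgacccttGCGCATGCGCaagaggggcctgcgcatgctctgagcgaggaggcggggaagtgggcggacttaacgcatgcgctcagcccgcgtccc

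Mrpl18 held the ETS letters, Mrps21 the NRF1 and interferon element letters, Mrpl12 the NRF1 letters and Mrpl32 the NRF1 and YY1 letters, while the Mrps18b stretch held none of the 5. Windows of 300 bases, which add 50 bases after the start, were found for 68 of the 77 members (74 windows). In these longer windows Mrps18b and Mrps21 also held the ETS letters, and they count so in the shares below. NRF1 and ETS factors are known regulators of nuclear genes for mitochondrial proteins. The NRF1 letters stood in 17.6% of the members' windows, against 9.46% of the windows of protein-coding genes in the table and 4.60% of all promoters. The ETS letters stood in 33.8%, 16.4% and 8.86% of the same sets, and the YY1 letters in 16.2%, 4.14% and 2.75%. The C/EBP-ATF letters were in 0 member windows, with 2.30% for the table's protein-coding genes and 3.97% for all promoters. The interferon element letters stood in 4.05%, 3.18% and 3.44%. Among windows of the members that fell, 20.8% held the NRF1, 33.3% the ETS and 12.5% the YY1 letters, and among those not past the threshold 15.2%, 34.8% and 17.4%. In no member window did matches to any 2 of NRF1, ETS and YY1 overlap. These are matches of letters and not sites of binding.

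In the large subunit, 17 of the 48 Mrpl genes fell (35.4%, against 14.2% of all genes tested). Mrpl18, a member of the uL18 family (chr17:12911349-12916345), stood at 96.8 and 106 CPM in controls and 24.2 and 37.5 CPM in mutants. The mutants were far below both controls, with a log2 fold change of -1.71 (SE 0.20, limma-trend adjusted p = 0.00153). Mrpl28, the counterpart of bacterial L28 (chr17:26123500-26126613), was at 66.1 and 64.3 CPM in controls and 24.9 and 27.3 CPM in mutants. Each pair of replicates was close, and the log2 fold change was -1.29 (SE 0.13, limma-trend adjusted p = 0.000643). It was the 1 member that passed with every single library left out.

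Mrpl34, the counterpart of bacterial L34 (chr8:71464959-71465747), was at 59.2 and 57.8 CPM in controls and 19.5 and 28.3 CPM in mutants. Its log2 fold change was -1.28 (SE 0.18, limma-trend adjusted p = 0.00338). Mrpl41 and Mrpl42 have no bacterial counterpart. Mrpl41 was at 45.5 and 49.0 CPM in controls and 19.5 and 23.6 CPM in mutants, a log2 fold change of -1.10. Mrpl42 was at 179 and 218 CPM in controls and 73.9 and 117 CPM in mutants, with the groups apart but the mutants unlike each other (log2 fold change -1.08, SE 0.22, limma-trend adjusted p = 0.0116). Mrpl11, of the base of the stalk that recruits translation factors, was at 44.5 and 48.4 CPM in controls and 23.9 and 24.2 CPM in mutants.

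The stalk itself also fell. Mrpl12, its repeated flexible protein, was at 185 and 173 CPM in controls and 96.9 and 117 CPM in mutants (log2 fold change -0.74, limma-trend adjusted p = 0.00785). Mrpl10, which anchors Mrpl12, was at 61.7 and 62.5 CPM in controls and 45.8 and 38.5 CPM in mutants (log2 fold change -0.55, limma-trend adjusted p = 0.0202). For Mrpl10 mutant 54 was the lower of the mutants.

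In the small subunit, 9 of the 29 Mrps genes fell (31.0%, against 14.2% of all genes tested). Mrps21, the counterpart of bacterial S21 (chr3:95862634-95871519), was at 58.7 and 60.0 CPM in controls and 17.0 and 25.3 CPM in mutants. Its log2 fold change was -1.47 (SE 0.19, limma-trend adjusted p = 0.00233), with the controls nearly equal and both mutants far below. Mrps9, the counterpart of bacterial S9, was at 81.3 and 84.5 CPM in controls and 40.5 and 50.6 CPM in mutants (log2 fold change -0.86). Mrps12, of the decoding centre, fell with a log2 fold change of -0.73. Mrps27, an RNA-binding protein of the pentatricopeptide repeat family, fell by 0.72 on the log2 scale, and Mrps33 and Mrps35, both without a bacterial counterpart, fell by 0.70 and 0.62.

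Mrps18b had the highest log2 fold change of the 4 genes that rose. Mrps18b (chr17:35910379-35916389), 1 of 3 mammalian relatives of bacterial S18, was at 24.0 and 21.4 CPM in controls and 50.9 and 46.3 CPM in mutants. The groups were far apart, at 2.14-fold (log2 fold change 1.06, SE 0.14, limma-trend adjusted p = 0.00231). Its relatives did not pass: Mrps18a, which sits in the large subunit despite its symbol, was at 36.2 and 42.2 CPM in controls and 40.5 and 38.5 CPM in mutants. Mrps18c was at 7.24 and 7.74 CPM in controls and 8.27 and 7.72 CPM in mutants. For both relatives the groups overlapped.

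Mrpl32, which in yeast and mouse is cut by the m-AAA protease before assembly, was at 34.8 and 41.3 CPM in controls and 56.7 and 52.6 CPM in mutants. Its log2 fold change was 0.51 (limma-trend adjusted p = 0.0288), without overlap. Mrps10, the counterpart of bacterial S10, was at 31.7 and 33.1 CPM in controls and 44.6 and 45.8 CPM in mutants (log2 fold change 0.47, limma-trend adjusted p = 0.0278). Mrps2, the counterpart of bacterial S2, was at 40.6 and 40.9 CPM in controls and 53.6 and 58.8 CPM in mutants (log2 fold change 0.45, limma-trend adjusted p = 0.0295). Mrpl32, Mrps10 and Mrps2 lost their calls under upper-quartile scaling, with limma-trend adjusted p between 0.0519 and 0.0530, and in DESeq2, with adjusted p between 0.0730 and 0.108. Over all alternatives the adjusted p of Mrpl32, Mrps10 and Mrps2 ran from 0.0123 to 0.213.

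Of the members not past the threshold, Mrps6, Mrps30, Mrpl35, Mrpl15, Mrpl38, Mrpl17, Mrpl1 and Mrps34 had the largest positive log2 fold changes, from 0.39 for Mrps6 (limma-trend adjusted p = 0.105) to 0.12 for Mrps34. Mrps30, another large-subunit protein with a small-subunit symbol, stood at 54.4 and 45.8 CPM in controls and 58.0 and 66.6 CPM in mutants. Mrps36, now known as a component of the 2-oxoglutarate dehydrogenase complex, was at 43.7 and 42.9 CPM in controls and 25.5 and 35.3 CPM in mutants (log2 fold change -0.52, limma-trend adjusted p = 0.0589). The member nearest above the threshold was Mrps31, with a log2 fold change of -0.43 and a limma-trend adjusted p of 0.0508, and the nearest below it was Mrpl47 at 0.0356.

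The human counterparts of 4 members, Mrpl44, Mrpl3, Mrps14 and Mrps22, are cardiomyopathy genes. Mrpl44, which carries a ribonuclease III fold, was at 33.3 and 34.3 CPM in controls and 23.9 and 22.8 CPM in mutants, and fell (log2 fold change -0.52, limma-trend adjusted p = 0.0272). Mrpl3 had a log2 fold change of -0.26 (limma-trend adjusted p = 0.175), Mrps14 one of -0.24 (limma-trend adjusted p = 0.20) and Mrps22 one of 0.05 (limma-trend adjusted p = 0.799). None of these last 3 passed.

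Grouped by place in the ribosome, 17 of 50 large-subunit genes fell and 1 rose (median log2 fold change -0.23), and 9 of 26 small-subunit genes fell and 3 rose (median -0.32). The summed CPM of the large subunit over that of the small was 2.44 and 2.5 in the controls and 2.39 and 2.32 in the mutants. Of 46 members with a bacterial counterpart, 16 fell (34.8%) and 3 rose (6.52%), with a median of -0.21. Of 29 without one, 10 fell (34.5%) and 0 rose, with a median of -0.39. Mrps18a and Mrps18b, relatives of bacterial S18 that are not its direct counterpart, were kept out of both groups, so Mrps18b, which rose, is in neither. Mrps36 was left out of the grouping by place and counted among the members without a bacterial counterpart. By place, 34.0% of the large-subunit and 34.6% of the small-subunit genes fell, and 2.00% and 11.5% rose. Of all genes tested, 14.2% fell and 17.8% rose. The difference between these groupings was not tested.

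Per length, the members spanned a wide range. The length used was the median over a gene's protein-coding transcripts in the GENCODE basic set, and the ranks rest on this choice. For Mrpl42 it was 661 bases, where all its annotated exons joined hold 3682, and for Mrpl30 662 against 3226. In the controls the mean level ran from 7.15 CPM per kb of transcript for Mrpl17 to 300 for Mrpl42, with a median of 37.2. Mrpl12, Mrps21, Mrpl30 and Mrpl52 followed at 136, 133, 132 and 109, and Mrpl19 and Mrps26 stood near the lowest at 8.59 and 8.21. In the mutants the median was 28.0 and the highest level was 21.7 times the lowest, against 42.0 times in the controls. The SD of the log2 level per kb over members was 1.04 and 1.05 in the controls and 0.896 and 0.944 in the mutants. Of the 5 highest, Mrpl42, Mrpl12 and Mrps21 fell, while Mrpl30 and Mrpl52 had log2 fold changes of -0.03 and -0.21 and did not pass.

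**Figure D2:**
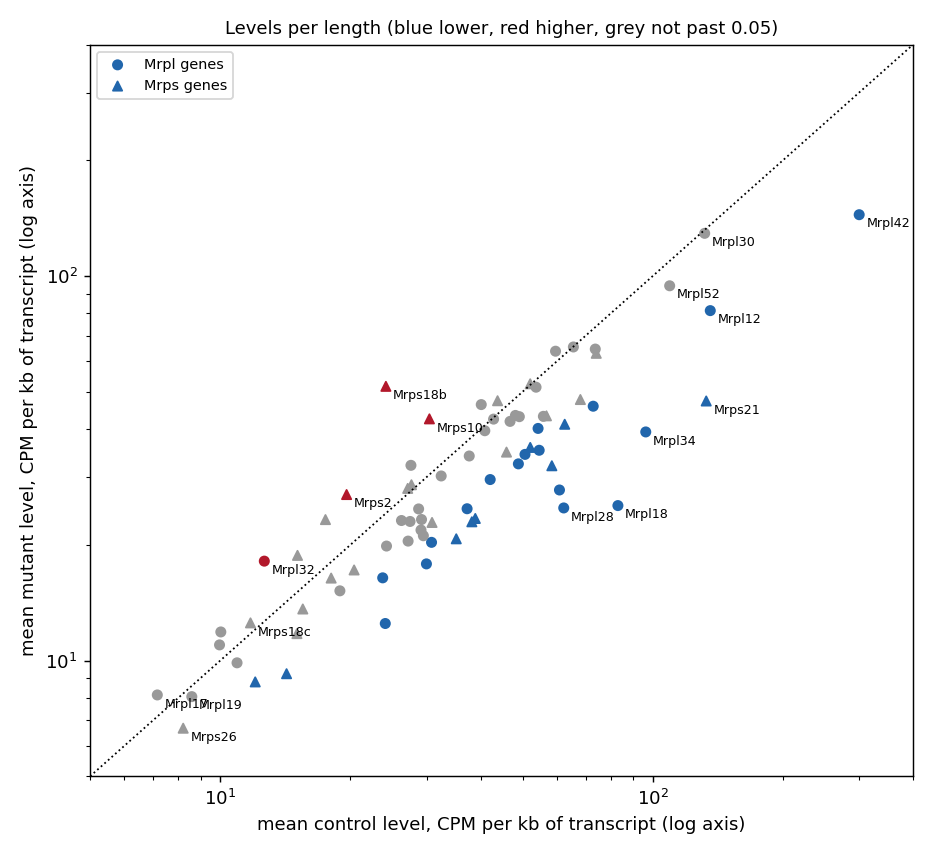
Mean level in the mutants (vertical axis) against the controls (horizontal axis), in CPM per kb of transcript on log axes, for the 77 members; the dotted line marks equal levels. Mrpl42 is highest in both groups, at 300 and 144, and Mrps18b lies farthest above the line.

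The share of protein-coding genes that fell was higher among short transcripts, and the members are short, with a median transcript of 1226 bases against 2774 for protein-coding genes. Of members under 800 bases 40.0% fell, against 36.5% of all protein-coding genes of that length. From 800 to under 1200 bases the shares were 25% and 24.3%, from 1200 to under 2000 bases 42.9% and 19.1%, and from 2000 bases 25% and 11.5%. With each library's trend over transcript length removed, an alternative chosen after seeing the data, 20 members fell, 5 rose and the median log2 fold change was -0.24. The shares of all genes in that fit are not given here, and the part of length in the result was not tested.

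**Figure D3:**
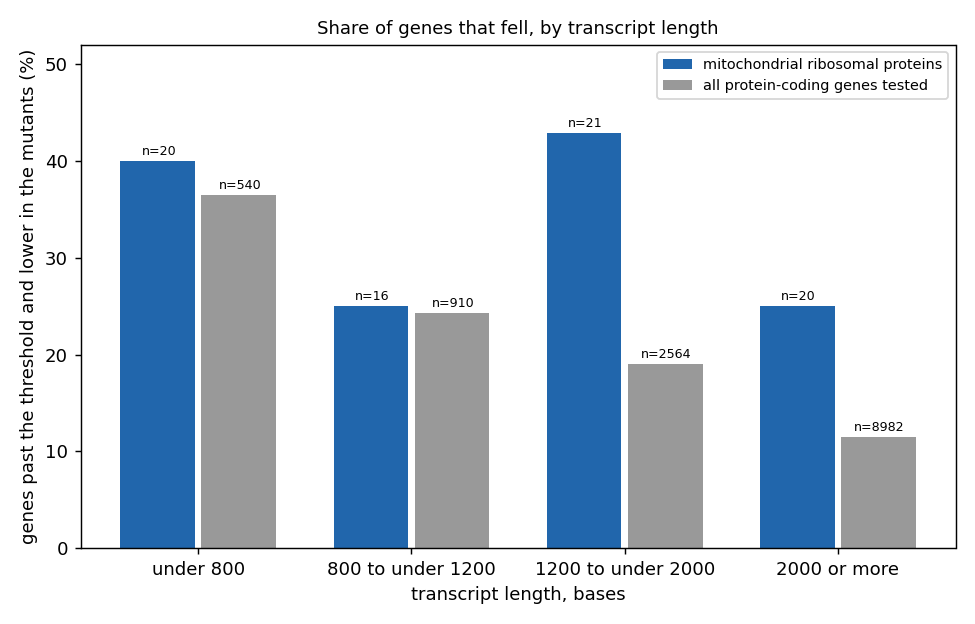
Percent of genes that fell (vertical axis) by transcript length (horizontal axis), for the members (blue) and all protein-coding genes tested (grey), with the number of genes above each bar. The bars are close below 1200 bases, at 40.0 and 36.5% and at 25 and 24.3%, and apart above it.

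Exons of 32 members overlap those of another gene, and of these 9 fell and 1 rose, against 17 and 3 of the 45 without overlap. The shares that fell were 28.1% and 37.8%, and those that rose 3.1% and 6.67%, against 14.2% and 17.8% of all genes tested. The strand setting of the counting is not given in the sources used here, so reads of overlapping genes on opposite strands may not have been kept apart. Of the exon bases of Mrps18b, 30.5% are shared with the antisense gene Gm16279, which rose with it (22.0 and 22.0 CPM in controls, 34.0 and 35.6 CPM in mutants). Gm16755, which overlaps Mrpl12, fell with it (log2 fold change -0.66). So did 6430562O15Rik, which shares 24.2% of the exon bases of Mrps27 (-0.74), and Ndufb5, which overlaps Mrpl47 (-0.83). Nr2c2 shares 69.8% of the exon bases of Mrps25, which fell, and did not pass (-0.08). Wdfy1 overlaps Mrpl44 and moved the other way (log2 fold change 0.95), and Mtbp, which overlaps Mrpl13, rose by 1.74 on the log2 scale while Mrpl13 stood at -0.37 and did not pass.

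Genes that work with the mitochondrial ribosome had a median change nearer to 0. Over 67 genes of 5 lists (ribosomal proteins under other symbols, translation factors, assembly and RNA modification, RNA stability, and transcription), 10 fell, 2 rose and the median log2 fold change was -0.08. The share that fell, 14.9%, was near the 14.2% of all genes, and the share that rose was 2.99% against 17.8%. Dap3, a GTP-binding protein of the small subunit, was 1 of 5 under other symbols to fall (-0.69). Of 11 translation factors 2 fell: Tufm, the elongation factor that delivers aminoacyl-tRNA, from 180 and 154 CPM in controls to 74.4 and 87.5 CPM in mutants (log2 fold change -1.04), and the elongation factor Gfm1 (-0.47). Of 30 assembly and modification genes 3 fell, a share of 10% that is under that of all genes, and 15 of the 30 had a negative log2 fold change. The 3 were Ndufab1, the acyl carrier protein, the rRNA methyltransferase Mrm2 and the small-subunit assembly factor Rbfa.

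Of 11 RNA stability genes, Lrpprc, which stabilises mitochondrial messenger RNAs, and the membrane insertase Oxa1l fell (-0.62 and -0.49), and the poly(A) polymerase Mtpap rose (0.89). Of 10 transcription genes, Mterf2 and the transcription factor Tfb2m fell (-1.17 and -0.73) and the elongation factor Tefm rose (0.64). The 12S rRNA of the small subunit, mt-Rnr1, was at 957 and 1582 CPM in controls and 2279 and 2433 CPM in mutants (log2 fold change 0.94, limma-trend adjusted p = 0.0491). The 16S rRNA of the large subunit, mt-Rnr2, was at 2346 and 3457 CPM in controls and 1767 and 3549 CPM in mutants and did not pass (limma-trend adjusted p = 0.750). The authors' deposited FDR was under 0.05 for 0 of these 2 rRNAs. The libraries were poly(A)-selected, so levels of these rRNAs reflect only the captured part.

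Beside other groups, 36 of 37 complex I subunits fell (median -0.92), as did 16 of 76 cytosolic ribosomal proteins (median -0.31). So did 5 of 10 mitochondrial genome messenger RNAs (median -1.56), where 14.2% of all genes tested fell. The authors' FDR was under 0.05 for 36, 13 and 2 genes of these lists. The mitochondrial genome messenger RNAs summed to 59962 and 66094 CPM in controls and to 15330 and 37003 CPM in mutants 51 and 54. Complex I held 0 genes that rose and was lower in mutant 51 than in mutant 54 for all 37 genes. Of 12 markers of mitochondrial content 4 fell, among them the outer membrane channel Vdac1 (-1.08) and the malate dehydrogenase Mdh2 (-1.02), and the matrix chaperone Hspa9 rose (1.11). The differences between these lists were not tested.

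**Figure D4:**
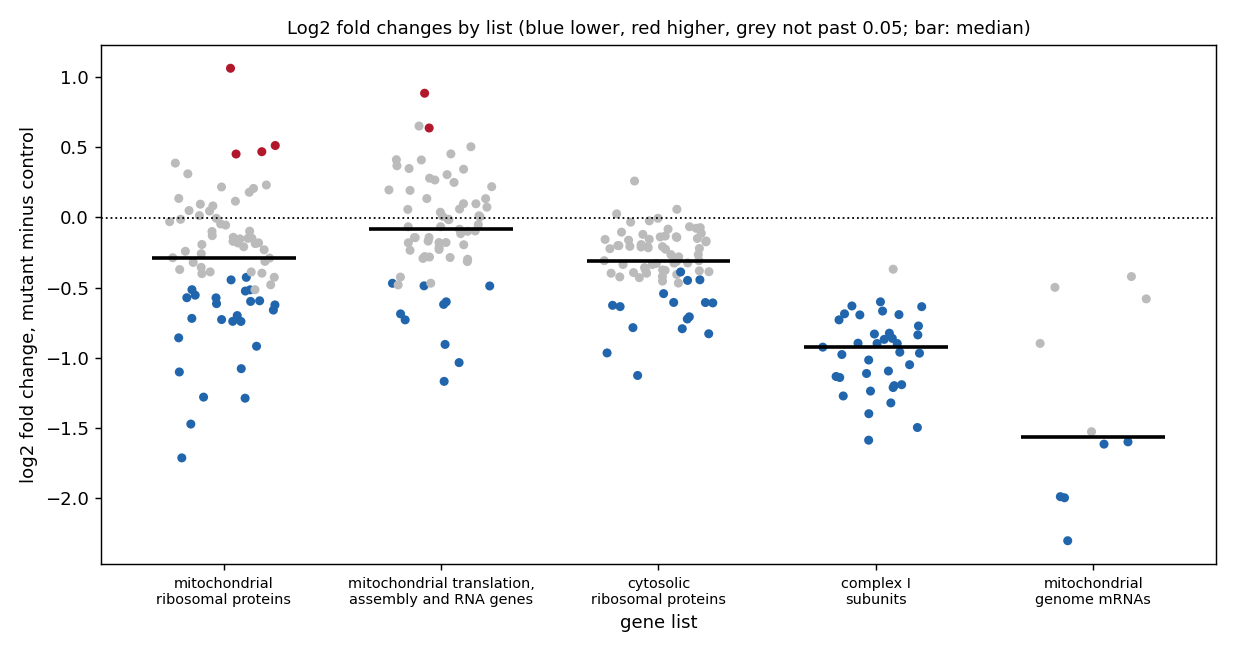
Log2 fold change of each gene, mutant minus control (vertical axis), in 5 gene lists (horizontal axis), with bars at the medians; blue fell, red rose and grey did not pass. The median of the members, -0.29, lies near that of cytosolic ribosomal proteins, -0.31, and above that of complex I, -0.92.

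Some cell type markers also passed the test, where 14.2% of all genes were lower and 17.8% higher. The summed level of 10 cardiomyocyte markers was 43208 and 35129 CPM in controls and 17965 and 27085 CPM in mutants, and 3 of the 10 fell (Myl2, Myl7 and Pln). Of 6 fibroblast markers 2 fell, of 4 smooth muscle markers 2, of 5 endothelial markers 0 and of 6 erythroid markers 0, although the erythroid sum ran from 5716 and 13161 CPM in controls to 675 and 5143 CPM in mutants. Of 6 macrophage markers 1 fell and 2 rose. Of 6 lung and airway markers 2 were listed, with sums of 6.90 and 8.99 CPM in controls and 0.979 and 0.475 CPM in mutants, and Foxj1 was at 0 in mutant 54. Of 4 liver markers 0 were listed, of 5 skeletal muscle markers Ckm alone, which the heart also expresses and which fell, and of 3 brown fat markers 2, of which Prdm16 rose. Their part in the levels of the mitochondrial ribosomal protein genes was not tested. In bulk heart RNA, fewer cells of a type and less RNA per cell cannot be told apart.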

How the data were processed

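Per the labels' protocols, each embryo gave 1 directional library of poly(A)-selected RNA after Trizol extraction. The build was GRCm38 and the tools were STAR, fastp 0.20.0, DESeq and edgeR 3.10, per the submitters' processing notes. How reads were counted, and with which strand setting, is not given in the sources used here. A single table was deposited, whose CPM columns, per the file headers, are a read signal scaled to effective library sizes, with column sums from 935156 to 1034350. The FDR, a p-value adjusted by the authors, was deposited beside them.

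Because the values are normalized, log2(CPM + 1) was compared between groups by limma-trend, in limma 3.58.1 under R 4.3.3. It covered 14869 genes that reached 1 CPM in 2 or more libraries, with p-values adjusted over all of them by Benjamini-Hochberg and a threshold of 0.05. Adjusted p-values in the text come from this fit unless another tool is named. Genotype was the only term. The spread comes from 2 embryos per group. In 100% of table entries (tolerance 0.001) the CPM was a whole number of reads, each worth between 0.109 and 0.138 CPM. The whole reads recovered were tested with edgeR 4.0.16 (quasi-likelihood), which called 1982 genes lower and 2706 higher, and with DESeq2 1.42.0. Replicates differed by more than sampling noise (chi-square per degree of freedom 8.47 for controls and 24.8 for mutants), and no pair was a duplicate. The fits were also run on simulated reads with the same spread for every gene and both groups. Since the spread in these data differs between groups, that run does not show how the calls hold here. The exact permutation test of the summed level was added after the values were seen.

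Gene positions and transcript lengths are those of GENCODE M21 on GRCm38, which matched 14921 of 14936 identifiers and all 77 members. Members and gene lists were chosen with earlier results of these data known. Genes were named by rule: all members that rose; the 6 of each subunit that fell most; up to 8 with a positive change not past the threshold; the 5 highest and 3 lowest per length; Mrps18 relatives, Mrps30, Mrps36, the stalk and human cardiomyopathy genes; and up to 4 per other list. Overlapping genes, the promoters printed, mt-Rnr2 and the genes nearest the threshold were added after the values were seen. Protein sequences were not used here.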

Additional observations from a re-analysis of the deposited data

How the results depend on the processing

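The count of members that fell was 26 in limma-trend and between 20 and 34 under other pseudocounts, filters, scalings, edgeR, DESeq2 and length-trend removal. It was much smaller with either control left out. The count that rose, 4, was 1 under upper-quartile scaling, 2 under quantile normalization and 1 in DESeq2, and it was smaller with any 1 library left out. Of the 26 that fell, 19 kept their call under every alternative that kept all libraries, and of the 4 that rose, Mrps18b did. The members' median lay between -0.38 and -0.20 in all settings run. For the partner lists, the count that fell lay between 0 and 10 with 1 library left out; the count that rose was 1 in DESeq2, 5 with the length trend removed and between 0 and 3 with 1 library left out. Of the settings above, the shares of all genes are given only for limma-trend, edgeR and DESeq2. Changes in these counts are therefore not read as a result about the members or the partner lists. No called member changed sign. Of the 47 members not called, 16 changed sign in at least 1 setting, 5 of them under another scaling. Of the members the text names, Mrpl30 was 0.153 with the length trend removed and between -0.122 and 0.0626 with 1 library left out (0.0598 without control 50). Mrps18a was -0.0757 under upper-quartile scaling, -0.0652 under quantile normalization and between -0.0938 and 0.121 with 1 library left out. Mrps22 was -0.0392, -0.0195 and between -0.0291 and 0.128 in the same settings, and Mrpl19 lay between -0.263 and 0.0640 with 1 library left out. The cause of these changes was not tested. Leaving out a library leaves 1 sample in a group, which is assumed to vary like the other group. No paired analysis was possible because the groups share no replicate numbers. The precision is limited by 2 embryos per group, and members held at least 56 reads in every library.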
